A study of Drosophila melanogaster with 24 samples.

Results

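Superoxide dismutases and catalase are the enzymes that remove superoxide and hydrogen peroxide, and 5 Drosophila melanogaster genes of this system were chosen by symbol: Sod1, Sod2, Sod3, Ccs and Cat. Of these 5 genes, 4 were matched to 5 probe sets, among 11981 genes with a probe set of their own and 18769 probe sets tested. Sod2, Ccs and Cat had 1 probe set each and Sod3 had 2, and Sod1 was not analysed here. The question was whether flies kept for generations in high oxygen carry other levels of these transcripts than controls. Flies from 27 isogenic lines were pooled, and from them 3 control populations were kept in room air and 3 hyperoxia-selected populations (the S_O2_A flies) in chambers supplied with raised oxygen. Whole adults and whole 3rd instar larvae of each population were measured on 2 arrays per population and stage, which gave 24 arrays in 4 groups of 6 (adult control, adult selected, larval control and larval selected). An adult sample was a pool of 25 males and 25 females. The labels name no transgene or mutant allele, and the control populations were matched to the selected ones in generation number. Adult selected flies were collected from their high-oxygen chamber, so selection and the oxygen level at collection cannot be told apart, and for larvae no source states that level.

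Superoxide forms when oxygen takes up a stray electron, chiefly in the mitochondrial respiratory chain. Superoxide dismutases turn superoxide into oxygen and hydrogen peroxide, each in its own place: Sod1 in the cytosol, Sod2 in the mitochondrial matrix and Sod3 outside the cell. Sod1 and Sod3 hold copper and zinc, whereas Sod2 holds manganese. Ccs is the copper chaperone that loads Sod1. Catalase, made by Cat, splits hydrogen peroxide into water and oxygen, mostly in peroxisomes, and flies without catalase or without Sod1 are known to be short-lived. In the RefSeq annotation Sod2, Sod3 and Ccs lie on chromosome arm 2R and Sod1 and Cat on 3L.

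Signals were linear intensities that had been scaled to a trimmed mean of 2500.1 on every array, and a signal can be compared between arrays but not between probe sets. The median signal of the arrays ran from 401.6 to 685.2 and the 20th percentile from 70.8 to 117.9. The labelled stages were checked with marker genes. All 7 measured adult markers and all 4 measured ovary markers were higher in adults than in larvae of both control and selected populations, and both measured larval markers were lower. The glue protein gene Sgs3 averaged 37.2 in adult control and 139009 in larval control arrays. The larval serum protein gene Lsp2 still averaged 44673 in adult control arrays. The summed signal of the adult markers was 1345 to 13422 in larval control arrays, 1385 to 5020 in larval selected arrays and at least 373823 in every adult array. Population 1 of the larval controls held the array with the highest sum. Since whole animals were measured, fewer cells of a type and less RNA per cell cannot be told apart.

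None of the 5 probe sets passed the test for selection in either stage, whereas Sod3 at both of its probe sets was higher in adults than in larvae whether or not the flies had been selected. Differences are given as log2 of selected over control signal, or of adult over larval signal, with the standard error (SE) and the 95% interval from limma, and a call needs an adjusted p under 0.05. In adults 0 of 5 were called, against 0.357% of all probe sets. In larvae 0 of 5 were called, against 1.65% of all. The difference between the stages in the response to selection was called at 0 of 5, against 1.97% of all. At an unadjusted p under 0.05 the counts in limma were 1 of 5 in adults (Sod3), 2 of 5 in larvae (Sod3 and Sod2) and 1 of 5 for the difference between stages (Sod2), against 11.1%, 16.2% and 17.8% of all probe sets. Between adults and larvae 4 of 5 were higher in adults of the control populations, against 28.9% of all probe sets, and 2 of 5 in the selected populations, against 34.1% of all.

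**Figure D1:**
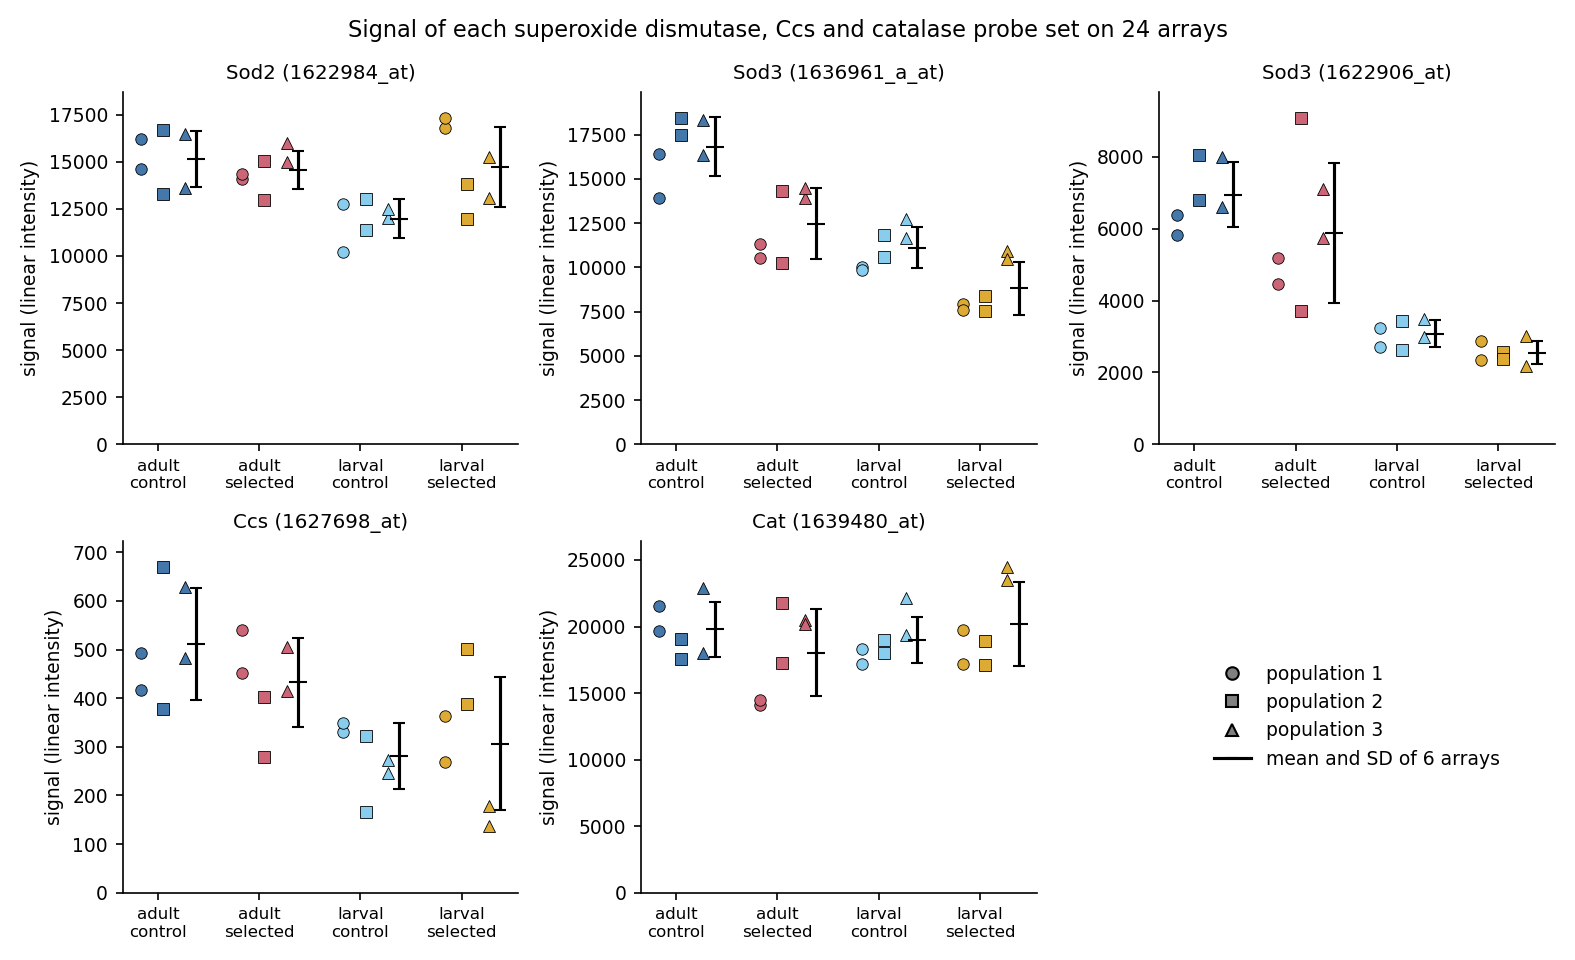
Signal (linear intensity, axes from 0) of each probe set on each of the 24 arrays, in 4 groups of 6; symbols mark populations 1 to 3, and the bars give the mean and SD of the 6 arrays. Sod3 (1622906_at) runs from 3700 to 9083 in adults and from 2168 to 3501 in larvae, whereas the Cat ranges of all 4 groups overlap.

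Sod3, the extracellular dismutase, was read by 2 probe sets. One of them, 1636961_a_at, carries the array maker's suffix for probes that match several transcripts of 1 gene, and which transcripts either probe set reads was not examined. Its signal in adult control arrays was 13930 at the lowest, 16934 at the median and 18434 at the highest, and in adult selected arrays 10263, 12615 and 14503. Of the 6 adult selected arrays, 4 lay below every adult control array. The population means were 15171, 17945 and 17313 in control and 10903, 12300 and 14216 in selected adults, so that all 3 selected populations lay below all 3 controls. The same held for 7.92% of all probe sets. The log2 difference was -0.44 (SE 0.13, 95% interval -0.73 to -0.15), or 1.36 times more signal in controls, and it did not pass the test over all probe sets (adjusted p = 0.233). An exact two-sided permutation of the 6 populations gave p = 0.1, the smallest that 3 against 3 can give.

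In larvae the same Sod3 probe set was at 9865, 11116 and 12735 (lowest, median and highest) in control and at 7516, 8166 and 10910 in selected arrays. Populations 1 and 2 of the selected larvae, with means of 7773 and 7951, lay below all controls, and selected population 3, with 10696, lay among them. The log2 difference was -0.35 (SE 0.13, 95% interval -0.63 to -0.06, adjusted p = 0.217). An exact two-sided permutation of the 6 larval populations gave p = 0.2. Populations of a group took 16.1% of the variation at this probe set and arrays of a population 5.83%. The limma intervals of both stages rest on a within-population correlation shared by all probe sets, so they may be too narrow here. The larval difference was called only in the alternative fit with the population number as a fixed block (adjusted p = 0.0454). The labels do not state that same-numbered control and selected populations are paired.

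At the other Sod3 probe set, 1622906_at, adult control arrays were at 5821, 6711 and 8050 (lowest, median and highest) and adult selected arrays at 3700, 5468 and 9083. The 2 arrays of adult selected population 2 were the lowest and the highest of their group, so the spread there lay between arrays of 1 population. Larval control arrays were at 2618, 3117 and 3501 and larval selected arrays at 2168, 2467 and 3004. The 3 selected larval population means, 2467 to 2612, were all below the 3 control means, 2965 to 3250, which was the case for 13.6% of all probe sets. The log2 difference was -0.29 in adults (95% interval -0.78 to 0.20, adjusted p = 0.69) and -0.27 in larvae (95% interval -0.56 to 0.02, adjusted p = 0.35). Over the alternatives with every population kept, the adult value ranged from -0.58 on the second arrays alone to -0.01 on the first arrays alone. In larvae centring each array on its median, a scaling that moved the median of all probe sets from -0.11 to 0.07, left values of -0.09 for this probe set and -0.16 for 1636961_a_at. Both Sod3 probe sets thus had negative differences in both stages, as did 25.8% of all probe sets.

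By stage, Sod3 was called at both probe sets in control and in selected populations. At 1622906_at the log2 difference between adults and larvae was 1.17 (SE 0.16, adjusted p = 1.67e-06) in the control and 1.15 (SE 0.16, adjusted p = 2.1e-06) in the selected populations, or 2.25 and 2.22 times more signal in adults. All 6 adult arrays lay above all 6 larval arrays in both, which held for 22.5% of all probe sets in the control and 25.1% in the selected populations. At 1636961_a_at adults were higher by 0.60 (SE 0.12, adjusted p = 0.000127) in the control populations, with no overlap of the arrays, and by 0.50 (SE 0.12, adjusted p = 0.000768) in the selected ones, where 4 of 6 adult arrays lay above every larval array. The latter call was lost with each array centred on its median (0.34, adjusted p = 0.124). The stage difference was larger at 1622906_at than at 1636961_a_at in 6 of 6 populations, by 0.61 ± 0.18 (SD, n = 6) on the log2 scale. An exact two-sided sign-flip permutation over populations gave p = 0.0312, the smallest 6 populations can give. This comparison was chosen after the values were seen. After quantile normalization the stage differences in the control populations were 0.95 at 1622906_at and 0.75 at 1636961_a_at, so the size of the gap depended on the scaling.

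**Figure D2:**
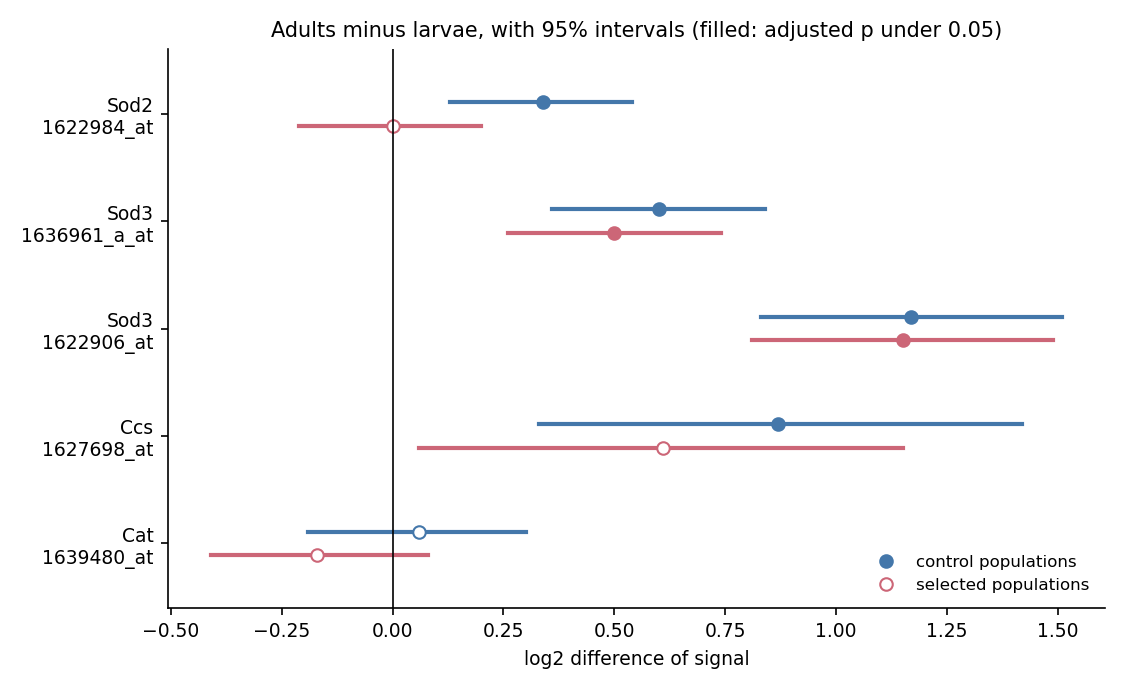
Log2 difference of signal between adults and larvae for each probe set in the control and in the selected populations (points) with the 95% interval (bars); filled points passed the test. Both Sod3 probe sets are filled in both, Sod2 and Ccs in the control populations alone, and Cat in neither.

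Sod2, the manganese enzyme of mitochondria, had much the same signal in 3 of the groups and a lower mean in control larvae. Its lowest, median and highest signals were 13284, 15422 and 16671 in adult control arrays and 12960, 14669 and 15985 in adult selected arrays. These ranges overlapped almost fully, and the log2 difference in adults was -0.05 (SE 0.11, 95% interval -0.28 to 0.18, adjusted p = 0.889). In larvae the control arrays were at 10189, 12271 and 13005 and the selected arrays at 11944, 14557 and 17323. The 2 arrays of selected population 1, at 16798 and 17323, were the highest, and the 3 selected population means (12891 to 17061) all lay above the 3 control means (11472 to 12271), as they did at 7.0% of all probe sets. The log2 difference in larvae was 0.29 (SE 0.13, 95% interval 0.01 to 0.56, adjusted p = 0.283). Without selected population 1 it was 0.18 (adjusted p = 0.611). The difference between the 2 stages in the response to selection was -0.34 (SE 0.14, 95% interval -0.63 to -0.05) and did not pass the test either (adjusted p = 0.203).

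Between stages Sod2 was higher in adults of the control populations by 0.34 (SE 0.10, adjusted p = 0.00608), or 1.26 times. All 6 adult arrays lay above the larval ones, as they did at 22.5% of all probe sets. The Sod2 call was lost without control population 1 (0.29, adjusted p = 0.0747) and on population means (0.34, adjusted p = 0.0558). It was also lost on the first arrays alone (adjusted p = 0.143) and on the second arrays alone (adjusted p = 0.12). In the selected populations the value was -0.0049 (SE 0.10, 95% interval -0.21 to 0.20, adjusted p = 0.973) as the signals were deposited. It turned to 0.24 (adjusted p = 0.0403) after quantile normalization, which moved the median of all probe sets in this comparison from 0.30 to 0.08. Whether Sod2 differed between stages in the selected populations therefore depended on the scaling.

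Ccs, the chaperone that brings copper to Sod1, had signals of 138 to 671, all above the 20th percentile of the arrays and mostly below their medians. Its lowest, median and highest signals were 377, 488 and 671 in adult control arrays and 279, 434 and 541 in adult selected arrays. The log2 difference of adults was -0.24 (SE 0.21, 95% interval -0.70 to 0.21, adjusted p = 0.727), with 5 of 6 selected arrays inside the control range. Without selected population 2 it was -0.07. In larvae control arrays were at 166, 298 and 350 and selected arrays at 138, 317 and 501. The selected larval populations stood apart from each other, with means of 317, 444 and 158. The log2 difference was 0.03 (SE 0.33, 95% interval -0.70 to 0.75, adjusted p = 0.981), and this interval still holds changes of over 1.5 times in both directions.

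Ccs was higher in adults than in larvae of the control populations by 0.87 (SE 0.26, adjusted p = 0.00743), or 1.83 times. The adult arrays all lay above the larval ones, which held for 22.5% of all probe sets. The call was lost without control population 2 (0.75, adjusted p = 0.0621) or 3 (0.77, adjusted p = 0.0821). It was also lost on population means (0.87, adjusted p = 0.0568) and on the first arrays alone (0.78, adjusted p = 0.233). In the selected populations the value was 0.61 (SE 0.26, 95% interval 0.06 to 1.15) and missed the threshold (adjusted p = 0.0574). It was 1.10 (adjusted p = 0.00221) without selected population 2 and 0.13 (adjusted p = 0.716) without selected population 3, and it was also called with dim probe sets left out of the fit (0.61, adjusted p = 0.0392). The stage differences of Ccs in control and selected populations did not differ beyond their error: the difference of the 2 was -0.27 (95% interval -1.04 to 0.50, adjusted p = 0.747).

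Cat, the catalase gene, had overlapping ranges in all 4 groups and no comparison called. Its lowest, median and highest signals were 17572, 19391 and 22898 in adult control and 14083, 18743 and 21746 in adult selected arrays. The 2 arrays of adult selected population 1, at 14083 and 14501, lay below every other Cat signal of the series. The log2 difference of adults was -0.15 (SE 0.14, 95% interval -0.46 to 0.16, adjusted p = 0.762), and without that population it was 0.01 (adjusted p = 0.985). Larval control arrays were at 17186, 18619 and 22174 and larval selected arrays at 17079, 19350 and 24501. The 2 highest signals of the series, 23515 and 24501, came from larval selected population 3. The log2 difference of larvae was 0.08 (SE 0.13, 95% interval -0.20 to 0.35, adjusted p = 0.815), and without that population it was -0.06 (adjusted p = 0.87). The limma intervals of both stages leave out a change of 1.5 times in either direction. They rest on a within-population correlation shared by all probe sets (0.133 in adults and 0.153 in larvae). Populations of a group took 67.6% of the variation at Cat and arrays of a population 21.2%, so these intervals may be too narrow.

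Cat did not pass the stage test either. Adults less larvae came to 0.06 (SE 0.12, 95% interval -0.19 to 0.30, adjusted p = 0.726) in the control and to -0.17 (SE 0.12, 95% interval -0.41 to 0.08, adjusted p = 0.257) in the selected populations. After quantile normalization they were 0.29 (adjusted p = 0.0412) and 0.16 (adjusted p = 0.271), so the direction in the selected populations and the call in the control populations depended on the scaling.

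**Figure D3:**
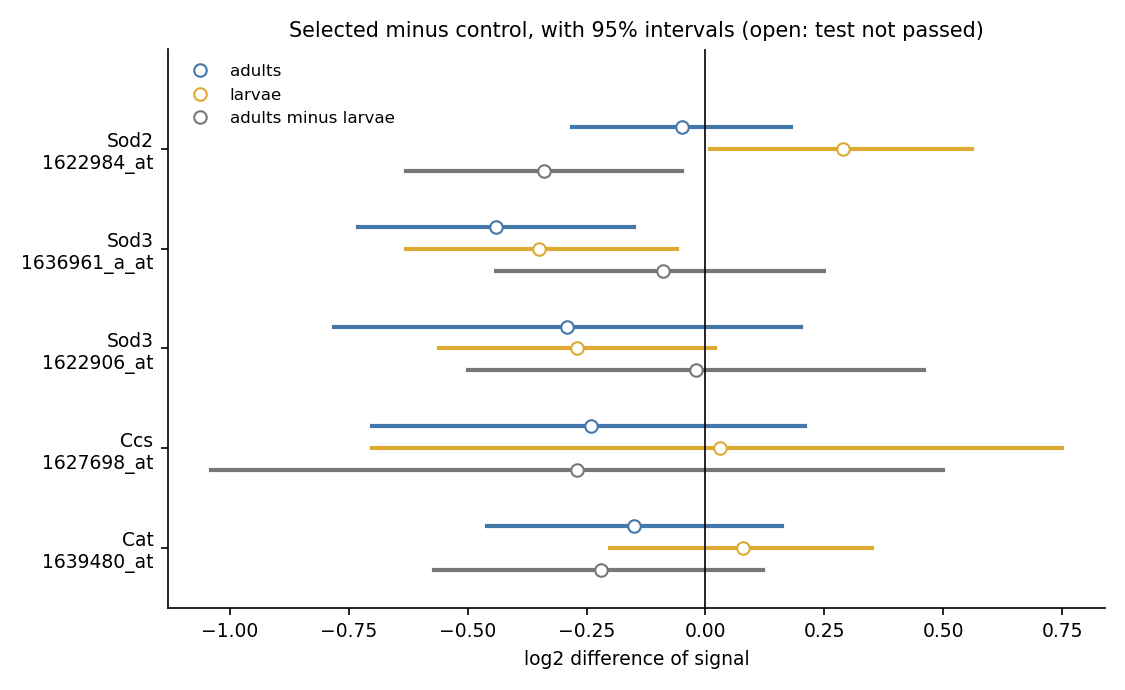
Log2 difference of signal between selected and control populations in adults and in larvae, and the difference between those 2 values (points), with the 95% interval (bars), for each probe set. All points are open because none passed the test. Sod3 1636961_a_at is the only probe set whose limma intervals lie below 0 in both stages. These intervals may be too narrow, since populations of a group took 16.1% of its variation and arrays of a population 5.83%.

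Across the adult selection comparison, 2 of the 7 measured adult markers were lower in selected flies, Act88F, the actin of flight muscle (10178 in control and 1633 in selected arrays on average), and fln, a thick-filament protein of the same muscle (5829 and 605). The summed signal of the 7 markers was 373823 to 570354 in control and 487379 to 560890 in selected adult arrays, and 1 of 7 averaged under the 20th percentile in each larval group (Acp26Aa in control, fln in selected larvae) and none in adults. None of the 4 measured ovary markers and none of the 4 male markers passed the test in adults. The part of flight muscle in the adult values of Sod3 or the other members was not tested.

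The members varied in different ways. Of the sum of squares of the log2 signal over 24 arrays, stage took 79.8% at Sod3 1622906_at, 51.5% at Sod3 1636961_a_at, 41.6% at Ccs, 18.7% at Sod2 and 1.94% at Cat. Selection took 26.2% at Sod3 1636961_a_at and under 10% at each of the others. At Cat, by contrast, differences between populations of the same group took 67.6%, and at Ccs 38.9%. The 2 arrays of a population differed on average by 9.86% of their mean at Sod3 1636961_a_at, 10.1% at Cat, 12.3% at Sod2, 23.8% at Sod3 1622906_at and 27.7% at Ccs.

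**Figure D4:**
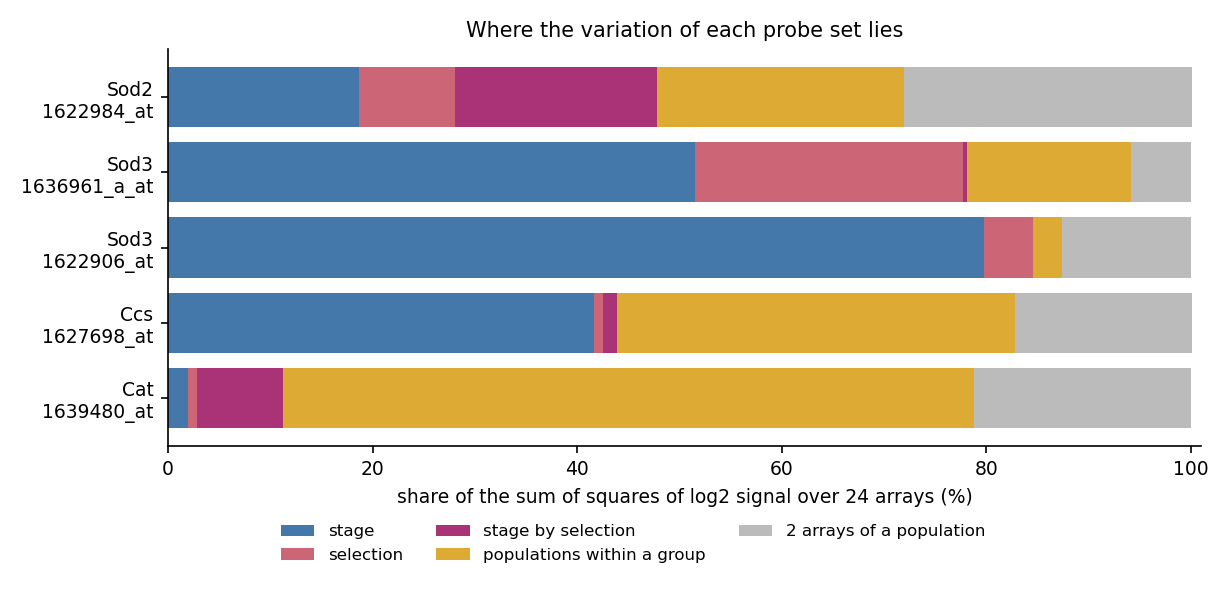
Share (percent) of the sum of squares of the log2 signal over 24 arrays that lies between stages, between selected and control, in their interaction, between populations of a group and between the 2 arrays of a population. Stage takes the longest bar at Sod3 (79.8% and 51.5%) and populations at Cat (67.6%).

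As a description over the 24 arrays, which share populations and scaling in pairs, the 2 Sod3 probe sets ran together, with a Pearson r of 0.86, and of 0.57 once each group's mean was subtracted. After that subtraction Cat ran with Sod3 1636961_a_at (0.63), and Ccs ran against it (-0.54) and against Cat (-0.53). Sod2 ran with none of them, with r between 0.04 and 0.09. Among 8352 brighter probe sets with 1 gene symbol, the genes most like Sod3 (1636961_a_at) in log2 signal were rumi (r = 0.93), CG33096 (0.92) and Polr2E (0.92), and after group means GstE11 (0.88), CG13083 (0.87) and Prosalpha6 (0.86). For Sod2 they were ND-B17 (0.78), SCOT (0.78) and CG5214 (0.76), and after group means CG11699 (0.71), Acat2 (0.71) and Acsf2 (0.69). For Cat they were CG34284 (0.86), speck (0.82) and CG8132 (0.78), and after group means CG18547 (0.88), CG16762 (0.88) and CG33493 (0.86). For Ccs they were CD98hc (0.81), hng2 (0.80) and CG9399 (0.80), and after group means Uhg3 (0.83), E(var)3-9 (0.75) and hng2 (0.74).

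The relatives of these enzymes did not pass the test for selection in either stage (0 of 4 in adults and 0 of 4 in larvae, and 0 of 4 in each at an unadjusted p under 0.05 in limma). Irc, named for an immune-regulated catalase that acts in gut immunity, had an average signal of 5718 in adult control and 11473 in larval control arrays. Irc was 2.01 times lower in adults of the control (adjusted p = 4.57e-06) and 1.94 times lower in adults of the selected populations (adjusted p = 8.65e-06). Rsod, a gene related to superoxide dismutase, was lower in adults as well, with log2 differences of -2.32 (adjusted p = 2.22e-05) and -2.65 (adjusted p = 3.56e-06). In adults its signal averaged 104 in control and 74.8 in selected arrays, near the 20th percentile of the arrays, so the size of that difference is uncertain. CG9314, a catalase-like gene, was higher in adults of the selected populations (0.92, adjusted p = 0.0161) and had a value of 0.09 (adjusted p = 0.839) in the controls. Quantile normalization took away the former call (0.45, adjusted p = 0.205).

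Genes that work beside the members were grouped by role, with 1 probe set per gene. In adults none of the peroxide removal (9 measured of 13), glutathione synthesis (2 of 4), copper delivery (6 of 6), antioxidant regulator (4 of 4), peroxisome assembly (9 of 13) or oxidant-producing oxidase (5 of 6) genes passed the test for selection, and 6 of the 35 measured were under an unadjusted p of 0.05 in limma, against 11.1% of all probe sets. In larvae 12 of 35 were under it, against 16.2% of all, and 1 passed the test: Acox57D-p, a peroxisomal acyl-CoA oxidase, an enzyme that makes the hydrogen peroxide catalase breaks down. Its lowest, median and highest signals were 4572, 5503 and 6142 in larval control arrays and 7130, 8422 and 9917 in larval selected arrays. The log2 difference was 0.62 (SE 0.12, adjusted p = 0.0315). In adults it was -0.01 (SE 0.08), and the difference between the stages passed the test (-0.63, SE 0.13, adjusted p = 0.0125). With 1 population left out at a time the larval value ran from 0.52 to 0.73. The call was lost without any 1 of the control populations (adjusted p = 0.0595, 0.0969 and 0.167) and without selected population 1 or 2 (adjusted p = 0.134 and 0.138). On population means, on the first arrays alone and on the second arrays alone, none of all probe sets was called in larvae.

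The response to selection also differed between stages at Pex14, a docking protein for peroxisomal import (-0.59, SE 0.15, adjusted p = 0.0477), whose log2 differences were -0.20 in adults and 0.39 in larvae, neither called. At Ctr1B, a copper importer, it differed by 1.41 (SE 0.36, adjusted p = 0.0431), with values of 1.18 in adults and -0.23 in larvae, neither called. Both calls lay close to the threshold and were lost when arrays were scaled otherwise, with an adjusted p of 0.0708 for Pex14 and 0.0545 for Ctr1B after quantile normalization. In larvae 8 of 9 peroxisome assembly genes had values above 0, with a median of 0.27 against -0.11 over all probe sets, and none passed the test. In adults 7 of 9 had values under 0, with a median of -0.07 against 0.06 over all, and the other scalings kept the sign of both medians.

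**Figure D5:**
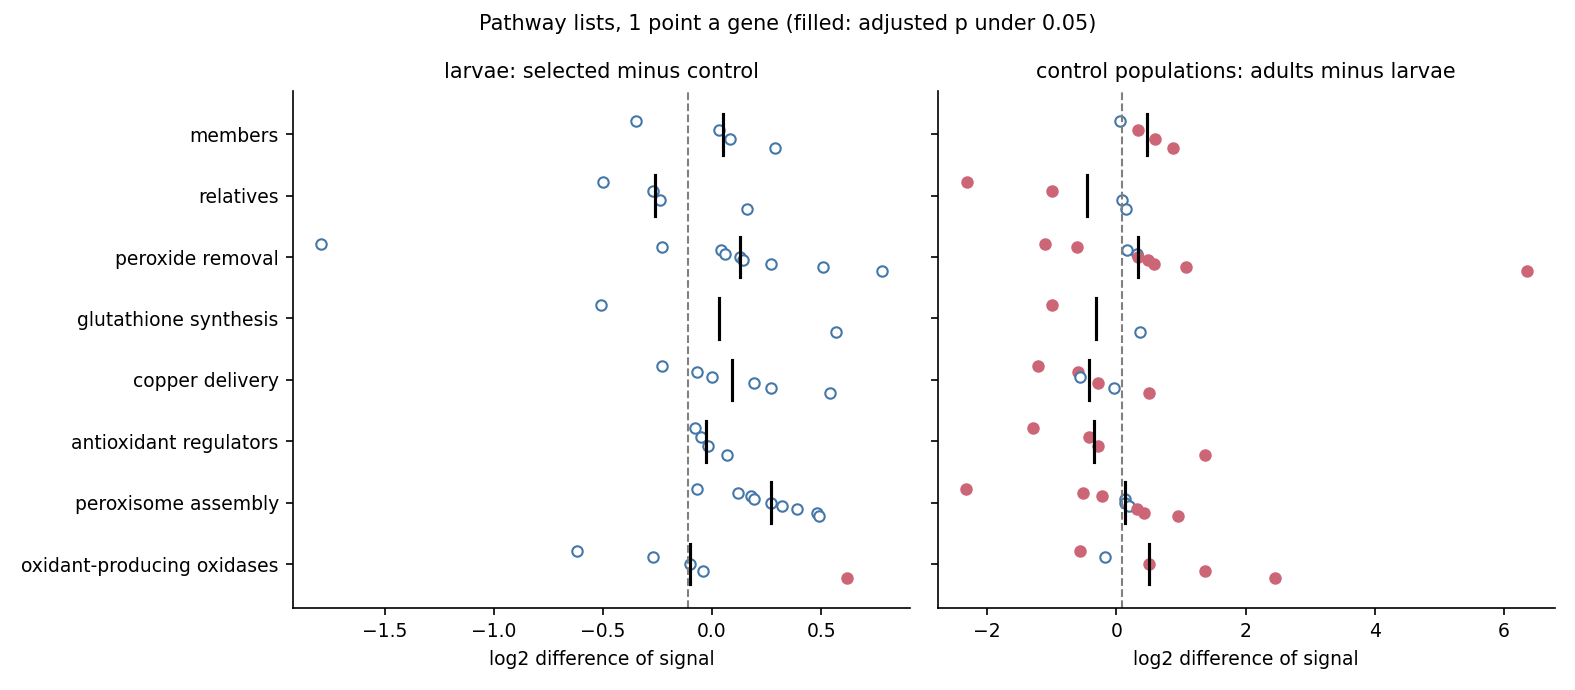
Log2 difference of signal for each gene (point) of the members and of 7 gene lists, for selected less control larvae and for adults less larvae of the control populations; filled points passed the test, black lines are list medians and dashed lines the median of all probe sets (-0.11 and 0.09). Acox57D-p is the only filled point in the larval comparison, at 0.62.

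By stage the lists were split. In the control populations adults had higher signal at 5 and lower signal at 2 of the 9 peroxide removal genes, against 28.9% higher and 22.1% lower of all probe sets. The thioredoxin of the female germ line, dhd, was higher by 6.35 (adjusted p = 1.97e-12), and PHGPx, a glutathione peroxidase homolog, was lower by 1.53 times (-0.61, adjusted p = 3.74e-07). All 4 ovary markers were also higher in adults, from a summed 2271 to 13061 in larval control to 387732 to 573097 in adult control arrays, and the part of the ovary in these values was not tested. Of the 4 antioxidant regulators, foxo was higher in adults by 1.37 (adjusted p = 2.58e-07) and 3 were lower, cnc, the fly homolog of Nrf2, by -1.29 (adjusted p = 2.65e-05). Gclc, the catalytic subunit of the rate-limiting enzyme of glutathione synthesis, was lower (-0.99, adjusted p = 1.35e-06).

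Of all probe sets, 28.9% were higher and 22.1% lower in adults of the control populations. Of 6 copper delivery genes, 1 was higher and 3 were lower in that comparison, with Ctr1B at -1.22 (adjusted p = 0.000247) and the metal-responsive factor MTF-1 at -0.59 (adjusted p = 0.000592). Of 9 peroxisome assembly genes, 3 were higher, Pex2 by 0.95 (adjusted p = 7.16e-09), and 3 were lower, Pex7 by -2.33 (adjusted p = 8.24e-05). Of 5 oxidases that produce superoxide or hydrogen peroxide, 3 were higher, led by Duox at 2.45 (adjusted p = 7.23e-11) and Nox at 1.37 (adjusted p = 2.26e-05), and 1 was lower. Adults of the selected populations were higher at 4 and lower at 2 of the 9 peroxide removal genes. They were higher at 1 and lower at 4 of the 9 peroxisome assembly genes, and lower at 2 of the 6 copper delivery genes. Of the 5 oxidases 3 were higher and 2 lower, and of the 4 antioxidant regulators 1 was higher and 2 were lower. At glutathione synthesis 1 of 2 was lower. Over all probe sets 34.1% were higher and 19.4% lower in this comparison.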

How the data were processed

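RNA of 24 samples had been hybridised to Affymetrix Drosophila arrays. The authors deposited 1 linear intensity per probe set and array. MBEI in dChip and RMA are named in the methods, and no source states which was used for the deposited table. Each array had been scaled to the same mean without the top and bottom 2%, and nothing was normalized again. Groups, populations and array numbers came from the sample labels. After 183 control probe sets were left out, signals (at least 1.0) were taken as log2 and fitted by lmFit and eBayes of limma (version 3.58.1, R 4.3.3). Each population was a random block. The correlation within a population was 0.133 in adults, 0.153 in larvae and 0.0425 in the fit over 24 arrays, which gave the stage comparisons and the difference between stages. In that fit a block held both stages of a population, so the 2 arrays of 1 stage counted as nearly independent. Its intervals may therefore be too narrow and its p-values too small. P-values were adjusted by Benjamini-Hochberg over 18769 probe sets, and the script was tested on simulated data. No source says whether the 2 arrays of a population hold separate RNA pools, so part of the spread may be technical. The populations, 3 in each group, are the replicates, and their number limits the precision, as does the number of arrays.

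Probe sets were named from the platform annotation: 13647 had 1 symbol, 402 had several and 4720 were not listed. For list counts, the probe set with the highest mean stood for its gene. Named were every member probe set, up to 4 called genes per list and comparison, and the 3 genes most like each member. Members and lists were chosen with earlier results of these data known. The alternatives were other scalings, floors, filters, blocks, array subsets, thresholds and each population left out; those for the pathway genes were added after the data were seen. Tables were made with Python 3.11.15, pandas 2.3.3 and numpy 2.4.6, and figures with matplotlib 3.10.9. No sequences were printed, since no sequence table was used here.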

Additional observations from a re-analysis of the deposited data

Results flagged for a closer look

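By limma's test of the difference between adults and larvae, the response to selection differed at 3 of the 35 measured genes of the pathway lists. It did so at none of the member probe sets, and at 1.97% of all probe sets. At an unadjusted p under 0.05 in limma it differed at 14 of the 35 genes, against 17.8% of all probe sets. The difference was 1.41 on the log2 scale at Ctr1B (low signal in adult control arrays), -0.59 at Pex14 and -0.63 at Acox57D-p. None of the 3 was called on population means, on the first arrays alone or on the second arrays alone, and Ctr1B and Pex14 were not called after quantile normalization or median centring.

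Among 48 sets of 6 arrays looked at, 3 held 1 array far from the others, and chance gives such a gap in about 1 of 20 sets, or 2.4. The gap took 0.633 of the whole range at Sodq in adult control population 3 (array 1). At Rsod it took 0.642 in adult control population 1 (array 2) and 0.675 in adult selected population 1 (array 1). Both genes are relatives with low signals in adults, and no member probe set held such an array.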

How the results depend on the processing

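In adults and for the difference between stages, 0 of 5 member probe sets were called in every alternative run. In larvae 1 was called with the population number as a fixed replicate block (Sod3 1636961_a_at) and 0 in the others. The labels do not state that same-numbered control and selected populations are paired. Same-numbered populations correlated between -0.08 and 0.12 in their deviations from group means. Adult and larval arrays of 1 population correlated only between -0.07 and 0.10, so this check cannot tell whether the numbers pair. For the stage in control populations, the count of 4 fell to 1 on the first arrays alone, 2 on population means and 0 at over 1.5-fold with a Bonferroni p under 0.0001, rose to 5 with quantile normalization, and ran from 3 to 4 with 1 population left out. In the selected populations the count of 2 fell to 1 with median centring, on the first arrays alone and on the second arrays alone, and to 0 at that stricter threshold, rose to 3 with quantile normalization and with dim probe sets left out, and ran from 2 to 3 with 1 population left out. The cause was not tested. Of 425 alternative values of single members, 388 kept direction and call, 12 lost a call, 4 gained one and 21 changed sign, of which 1 was called (Sod2 by stage in the selected, after quantile normalization). Of 374 such values of the other named genes, 62 lost a call and none changed sign.

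With 1 population left out, Cat ran from -0.24 to 0.01 in adult selection, from -0.06 to 0.15 in larval selection and from -0.02 to 0.10 by stage in controls. Likewise Ccs ran from -0.30 to 0.44 in larval selection and from -0.74 to 0.23 for the difference between stages, Sod3 1622906_at ran from -0.11 to 0.11 for that difference, and Sod2 from -0.07 to 0.12 by stage in the selected. On the first arrays alone, Sod2 was 0.04 in adult selection and 0.09 by stage in the selected, and the difference between stages was 0.36 at Sod3 1622906_at and 0.07 at 1636961_a_at. On the second arrays alone, larval selection was -0.19 at Ccs and -0.03 at Cat, and Cat by stage in controls was -0.06. Quantile normalization gave -0.0039 for Cat in larval selection and, by stage in the selected, 0.24 for Sod2 and 0.16 for Cat.

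Over all probe sets the calls ran, over the alternatives, from 0 to 280 in adults (67 as first fitted), 0 to 1136 in larvae (309) and 0 to 746 for the difference between stages (369), with limma counting at least 1229, 1618 and 1472 at an unadjusted p under 0.05. Median centring changed higher against lower calls from 163 and 146 to 164 and 27 in larvae, from 190 and 179 to 42 and 286 for the difference between stages, and from 15 and 52 to 0 and 14 in adults.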
